A study of Rattus norvegicus with 6 samples.

Results

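The miRNA repertoire of the rat trigeminal ganglion after a sham operation was described from 3 libraries, out of 6 in the series. They were the libraries labelled sham 1, sham 2 and sham 3, and all 650 listed mature miRNAs were kept. The ganglia came from the operated side of Sprague-Dawley rats aged 8 to 10 weeks, on day 14 after the left infraorbital nerve was exposed without being ligated. The ligated animals of the series are not described here, and no unoperated ganglion is analysed, so the sham surgery is part of what these levels hold. Nothing in the labels tells if the libraries are of different animals, so the SD over libraries may in part be technical.

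The trigeminal ganglion contains the somata of facial sensory neurons, together with satellite glia, Schwann cells, fibroblasts and blood vessels. A miRNA is cut from a hairpin precursor whose 5p and 3p arms can each enter an Argonaute protein, and usually one arm is retained while the other is degraded. Target recognition rests mainly on the seed, bases 2 to 8 of the mature miRNA, so miRNAs that share a seed are grouped as a family. A ganglion library mixes all its cell types, and fewer cells of a type cannot be told apart from less miRNA per cell.

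The sequences below carry the families and the cluster that dominate the ganglion. They are written 5′ to 3′ with T for U as in the deposited table, with the seed in capitals, and each equals the mature RefSeq sequence (build GRCr8).
miR-100-5p: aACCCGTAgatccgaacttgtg
miR-99b-5p: cACCCGTAgaaccgaccttgcg
let-7i-5p: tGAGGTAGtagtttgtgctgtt
let-7f-5p: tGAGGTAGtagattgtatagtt
let-7g-5p: tGAGGTAGtagtttgtacagtt
let-7c-5p: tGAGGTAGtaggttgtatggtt
miR-26a-5p: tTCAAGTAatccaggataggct
miR-27b-3p: tTCACAGTggctaagttctgc
miR-127-3p: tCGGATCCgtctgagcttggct
miR-182: tTTGGCAAtggtagaactcacaccg
miR-183-5p: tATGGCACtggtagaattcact
miR-96-5p: tTTGGCACtagcacatttttgct
The most abundant miRNA, miR-99a-5p, shares the seed of miR-100-5p and differs from it at 1 of 22 bases. The 4 let-7 sequences carry the same seed and differ only after it. miR-182, miR-183-5p and miR-96-5p, which come from a cluster of neighbouring hairpins, have 3 distinct but similar seeds. The seed of miR-96-5p differs from that of miR-182 only at its last base, and from that of miR-183-5p only at its first.

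Levels are given as CPM, each miRNA's count scaled to a total of 1000000 miRNA counts in its library. Ligation and amplification favour some sequences, so ranks and shares of different miRNAs compare counts and not molecules. The column sums were 12560545, 10135844 and 10084327 counts in sham 1, 2 and 3. Sham 1 stood apart from the other libraries in many levels, so values are given for each library where that matters. Of the 650 miRNAs, 537 had at least 1 count in all 3 libraries, 94 in some of them and 19 in none. A count of 0 allows up to 3 counts, which is 0.239, 0.296 and 0.297 CPM in sham 1, 2 and 3. At the threshold of 1 CPM in every library 437 miRNAs were present. By mean level, 36 lay between 1 and 2 CPM and 32 between 0.5 and 1 CPM, so this threshold passes through a continuous slope of levels.

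Few miRNAs made up most of the ganglion's counts. The 10 most abundant of each library held 65.8%, 66.4% and 66.0% of its counts, and the 50 most abundant 92.5%, 92.8% and 92.8%. By mean level, 5 miRNAs held 50% of counts, 41 held 90% and 146 held 99%. There were 17 miRNAs at 10000 CPM or more, 67 at 1000 or more, 172 at 100 or more and 330 at 10 or more. The 126 miRNAs between 1 and 10 CPM together held 0.0489% of counts, and the 175 detected below 1 CPM held 0.00438%. The 3 libraries gave nearly the same curve, with 40 to 42 miRNAs needed for 90%.

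**Figure D1:**
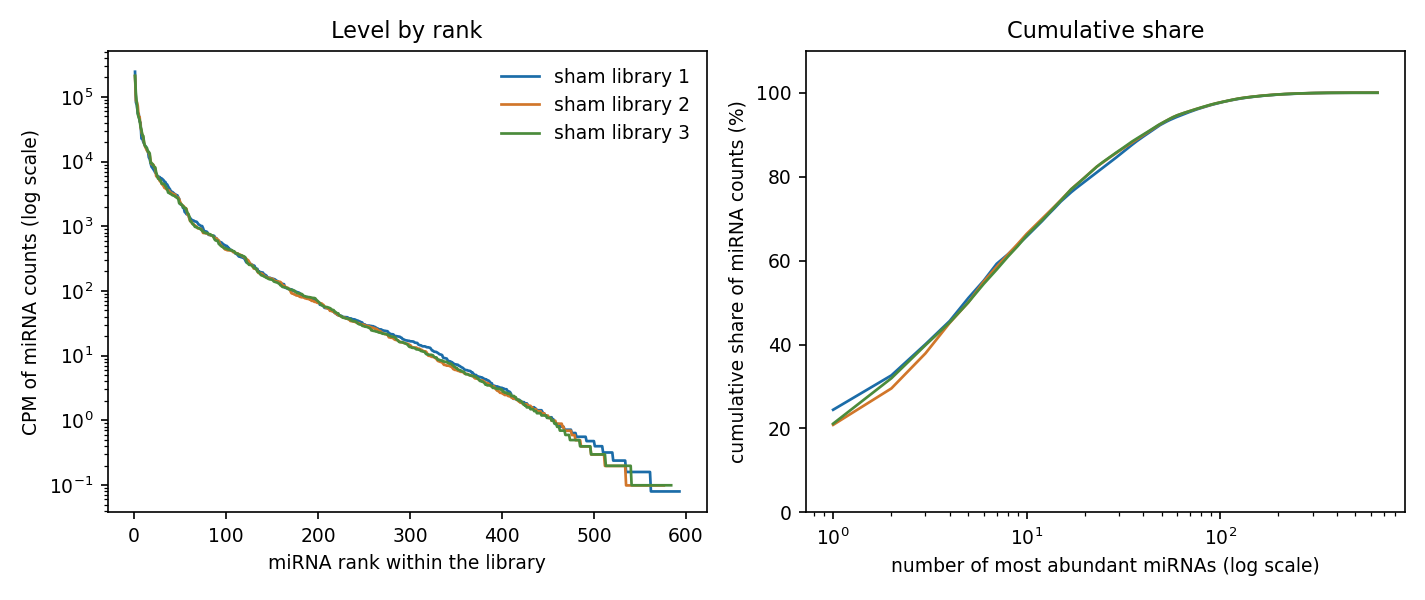
Left, the CPM of each detected miRNA (log scale) against its rank within its sham library; right, the cumulative share of counts (%) against the number of most abundant miRNAs (log scale). The 3 libraries, drawn as separate lines, follow the same steep fall, and 41 miRNAs reach 90% by mean level.

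miR-99a-5p, a miRNA of a broadly expressed family that targets mTOR signalling, stood alone at the top. It was at 244590, 208664 and 211449 CPM in sham 1, 2 and 3, which is 22.2% ± 2.00 of counts (SD, n = 3) and 21.0% over sham 2 and 3 alone. It was highest in sham 1, and its lowest library was above the highest library of any other miRNA. miR-26a-5p, a miRNA of differentiated cells, followed at 81935, 86817 and 108243 CPM. let-7i-5p was at 74294, 83544 and 78849 CPM and overlapped with miR-26a-5p. miR-27b-3p was at 55190, 72367 and 54098 CPM, below let-7i-5p in every library with no overlap of ranges.

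Next came members of the let-7 family, which holds back proliferation in differentiated tissue: let-7f-5p at 50772 ± 3730 CPM, let-7g-5p at 44429 ± 4640 CPM and let-7c-5p at 36891 ± 3846 CPM. miR-127-3p, an imprinted miRNA that opposes the retrotransposon-derived gene Rtl1, averaged 27421 ± 4395 CPM. miR-143-3p, known from smooth muscle, averaged 23185 ± 3718 CPM. miR-182, of sensory neurons, averaged 22999 ± 2720 CPM. Ranks 11 to 20 were taken by miR-125b-5p, miR-100-5p, miR-183-5p, miR-24-3p, let-7a-5p, miR-9a-5p, miR-126a-3p, miR-27a-3p, miR-3553 and miR-30d-5p, from 19443 ± 2890 CPM for the first to 8469 ± 648 CPM for the last.

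The order within this group was only partly resolved. Of the 19 neighbouring pairs among the 20 most abundant miRNAs, 14 had overlapping ranges over the 3 libraries and 5 did not. The steps without overlap lay below miR-99a-5p, let-7i-5p, let-7c-5p, miR-100-5p and miR-126a-3p. miR-143-3p and miR-182 differed by a factor of 1.01 in mean level, and miR-143-3p was the higher of them in 1 of 3 libraries. Across libraries 9 miRNAs were in the first 10 of all 3, and 17 were in the first 20 of all 3.

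How reads that match several near-identical miRNAs were assigned is not stated in the sources used here. Near-identical here means no more than 2 mismatches over 19 bases or longer, compared from the first base of both without a shift. Pairs whose sequences start at different bases, such as miR-10a-5p and miR-10b-5p, are therefore not counted as near-identical. By this rule 11 of the 20 most abundant miRNAs have a near-identical listed miRNA, so their individual levels are uncertain. miR-99a-5p and miR-100-5p, let-7i-5p and let-7g-5p, miR-26a-5p and miR-26b-5p, and miR-27b-3p and miR-27a-3p are such pairs. If each read was counted once, sums over a seed family do not depend on that assignment.

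Summed over seeds, the ganglion was dominated by 2 families of nearly equal size. The 650 miRNAs carried 543 distinct seeds, of which 70 were shared by 2 or more miRNAs (177 miRNAs, 76.8% of counts). The miR-99/100 family (seed ACCCGTA, 3 members) held 26.8%, 23.3% and 23.4% of counts in sham 1, 2 and 3. The let-7 family (seed GAGGTAG, 9 members with miR-98-5p) held 24.5%, 24.3% and 23.2%. Their means were 24.5% ± 1.99 and 24.03% ± 0.706, and which was larger changed between libraries: the miR-99/100 family in sham 1 and 3, the let-7 family in sham 2.

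These families were built differently. miR-99a-5p made up 90.5% of its family, against 7.30% for miR-100-5p and 2.21% for miR-99b-5p. In the let-7 family the leading member, let-7i-5p, made up 32.8%, followed by let-7f-5p with 21.1%, let-7g-5p with 18.5%, let-7c-5p with 15.4% and let-7a-5p with 5.94%. let-7d-5p, let-7b-5p and let-7e-5p each made up 1.32% to 2.22% of the family, and miR-98-5p 0.540%.

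The miR-26 family (seed TCAAGTA) held 9.45% ± 1.40 of counts, with 97.7% of it in miR-26a-5p. The miR-27 family (seed TCACAGT), regulators of lipid and muscle differentiation, held 6.93% ± 1.04, with 87.3% in miR-27b-3p. These 4 families together held 64.9% ± 1.16 of counts, from 63.9% to 66.2% by library. The miR-125/351 family (CCCTGAG) held 2.65% ± 0.356 and the miR-30 family (GTAAACA) 2.62% ± 0.247. In the miR-30 family miR-30d-5p, miR-30c-5p and miR-30a-5p had nearly equal parts of 32.3%, 31.6% and 30.2%, and the neuronal miR-384-5p, which shares this seed, had 0.493%.

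The other families among the first 12 each had a single member. They were miR-127-3p (2.74% ± 0.440), miR-143-3p (2.32% ± 0.372), miR-182 (2.30% ± 0.272), miR-183-5p (1.58% ± 0.0755), miR-24-3p (1.52% ± 0.0886) and miR-9a-5p (1.31% ± 0.135). The first 12 families held 81.9% ± 0.153 of counts. That sum ranged from 81.8% to 82.1% over the libraries, although the share of miR-99a-5p was higher in sham 1. The shares of miR-26, miR-127-3p, miR-143-3p, miR-182 and miR-9a-5p were at their lowest in sham 1. Shares of a library sum to 100%, so the level of 1 miRNA moves the shares of all others.

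**Figure D2:**
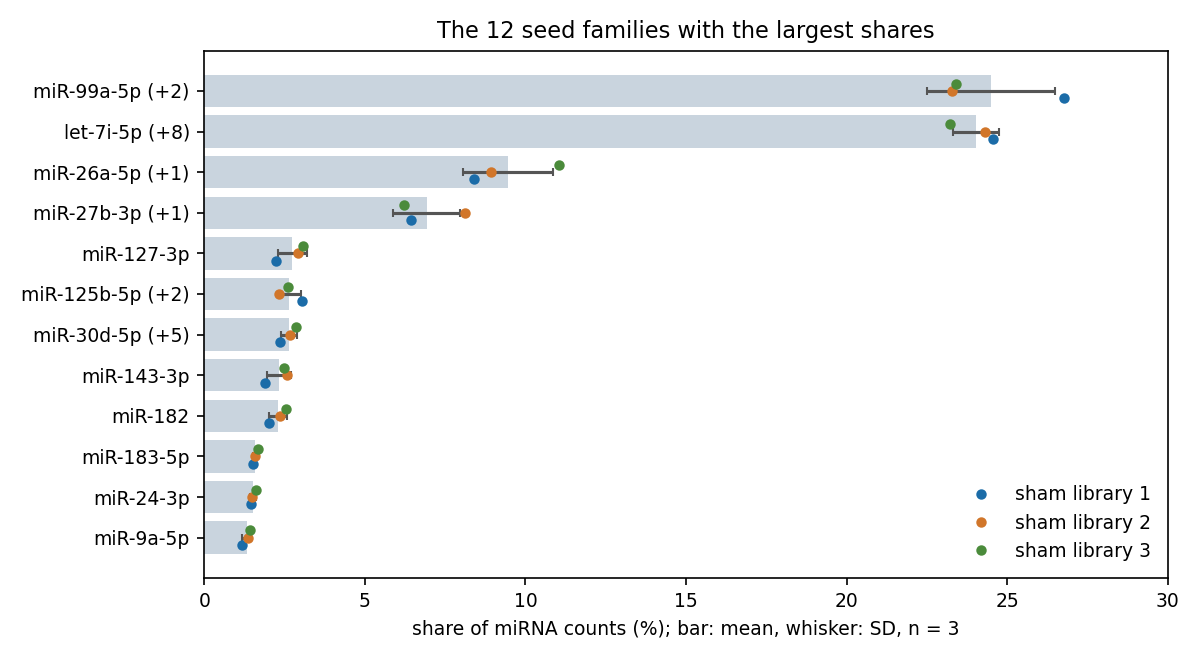
Share of miRNA counts (%) for the 12 largest seed families, each named by its most abundant member with the number of further members in brackets; bars are means, whiskers the SD over 3 libraries, and dots the libraries. The families led by miR-99a-5p and let-7i-5p stand at 24.5% and 24.03%, far above the rest.

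The sequence features of the repertoire depended on whether miRNAs or counts were weighed. A 5′ U, the base that Argonaute proteins bind best, began 36.6% of the listed miRNAs but 65.6% ± 2.61 of the counts. A 5′ A began 28.6% of miRNAs and 29.4% ± 2.45 of counts, most of that in miR-99a-5p, since without it the share of A fell to 9.35% ± 0.836 and that of U was 84.2% ± 1.21. A 5′ C began 23.1% of miRNAs and 4.34% ± 0.148 of counts, and a 5′ G 11.7% and 0.648% ± 0.0203. miRNAs annotated at 22 bases were 48.5% of the list and 79.1% ± 1.08 of counts. Those of 21 bases were 22.2% and 10.0% ± 1.05. The 25-base class held 2.45% ± 0.262 of counts in 5 miRNAs, most of it in miR-182 (2.30%).

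Arm preference was tested for the hairpins, called stems here, that have both a 5p and a 3p miRNA listed under the same name. There were 224 such stems, of which 203 had at least 10 counts over both arms in every library. The quasi-likelihood test of edgeR, with the library as a block, called a preferred arm in 186 of 203 stems (91.6%, adjusted p under 0.05). The 5p arm was higher in 106 stems (52.2%) and the 3p arm in 80 (39.4%). Among 124 stems without a near-identical or complementary listed miRNA the calls were 59 and 53, so the excess of 5p calls was smaller there. In 193 stems the same arm was higher in all 3 libraries. A ratio compares counts of different sequences, and ligation and amplification favour some sequences over others, so it is a ratio of counts and not of molecules.

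The preference was usually strong. The median ratio of the higher to the lower arm was 31.8 over the 203 stems and 58.0 over the 112 stems with at least 100 CPM in both arms together. Among called stems 157 had a ratio of at least 4, 129 of at least 10 and 72 of at least 100. The lower arms together made up 1.65% of the counts of these stems. In 5 stems the lower arm had no count in any library: miR-320-5p, miR-150-3p, miR-224-3p, miR-155-3p and miR-3590-3p. Against the floor of 3 counts over the 3 libraries, miR-320-3p was at least 4401-fold higher than its partner and miR-150-5p at least 1804-fold.

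The most abundant stems with a higher 3p arm were miR-27b, miR-127, miR-143, miR-126a, miR-27a, miR-199a, miR-29a, miR-23b, miR-22 and miR-152. miR-143-3p was at 23185 ± 3718 CPM against 15.4 ± 1.76 for miR-143-5p (log2 ratio of 5p to 3p -10.54 ± 0.23, SE over 3 libraries). The endothelial miR-126a-3p was at 13044 ± 1871 CPM against 150 ± 38.7 for its 5p partner (-6.46 ± 0.12). The collagen-repressing miR-29a-3p was at 3613 ± 151 CPM against 0.581 ± 0.0996 (-12.57 ± 0.14). The preference was mildest in miR-199a, at 5321 ± 722 and 1124 ± 334 CPM (-2.27 ± 0.20), and miR-22, at 2862 ± 210 and 261.6 ± 8.38 CPM (-3.45 ± 0.04). All 10 were called by edgeR, with the highest adjusted p, 1.33e-43, in miR-199a. miR-29a-3p is near-identical to miR-29c-3p, so its level and ratio are uncertain.

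On the 5p side, miR-99a-5p stood against 2.06 ± 0.909 CPM for miR-99a-3p, and let-7i-5p against 25.8 ± 2.00 CPM for let-7i-3p. miR-26a-3p had 2 counts in the 3 libraries together. In the neuronal miR-9a the 5p arm was at 13140 ± 1353 CPM and the 3p arm at 392.6 ± 65.4 (log2 ratio 5.07 ± 0.06). In miR-30a both arms were abundant, at 7927 ± 1461 and 1100 ± 29.1 CPM (2.83 ± 0.18). In miR-338, known from myelinating glia, the 5p arm led at 4416, 3918 and 4533 CPM over 1661, 2075 and 1923 CPM for the 3p arm, with no overlap (log2 ratio 1.19 ± 0.14, edgeR adjusted p = 4.32e-16).

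A few abundant stems kept both arms at like levels. miR-140, best known from cartilage, was the closest to parity: miR-140-5p was at 331.5, 410.9 and 414.5 CPM and miR-140-3p at 339.4, 424.3 and 408 CPM. The 5p arm was the higher in sham 3 only, and edgeR called no preference (log2 ratio -0.02 ± 0.02, adjusted p = 0.924). The arms carry unrelated seeds.
miR-140-5p: cAGTGGTTttaccctatggtag
miR-140-3p: tACCACAGggtagaaccacgg
miR-30e-3p stood at 887.7 ± 85.4 CPM and miR-30e-5p at 759.3 ± 38.5, with the 3p arm higher in 3 of 3 libraries but no call (-0.22 ± 0.04, edgeR adjusted p = 0.172). Without sham 1 the 3p arm of miR-30e was called (edgeR adjusted p = 0.0101). miR-30e-5p is near-identical to miR-30a-5p and miR-30d-5p, so its level and this ratio are uncertain.

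The other stems closest to parity among those of at least 100 CPM in both arms together were miR-380, miR-369, miR-485, miR-148a, miR-384, miR-339, miR-3068 and miR-423, with absolute log2 ratios from 0.18 to 0.63. The higher arm of miR-380 and of miR-369, both from the Dlk1-Dio3 cluster, differed between libraries, and neither was called (edgeR adjusted p = 0.385 and 0.137). miR-485 and miR-148a leaned to the 5p arm in 3 of 3 libraries without a call (edgeR adjusted p = 0.0946 and 0.069). An arm of miR-148a has a near-identical listed miRNA. miR-369-5p is complementary to miR-3578 over 22 bases, and miR-380-5p to miR-3579 over 21. The ratios of miR-148a, miR-369 and miR-380 are therefore uncertain. miR-384, miR-339 and miR-3068 were called for the 5p arm and miR-423 for the 3p arm (edgeR adjusted p from 0.000387 for miR-423 to 0.021 for miR-384). The call of miR-384 was lost without sham 2 (edgeR adjusted p = 0.112) or sham 3 (0.0923), without the library block (0.11) and in DESeq2 (0.0634). That of miR-339 was lost without sham 2 (edgeR adjusted p = 0.102) or sham 3 (0.0566), and that of miR-3068 without sham 2 (0.125). Among stems of at least 100 CPM, 12 had a ratio under 2 and 7 were not called. One of these 7, miR-450b, was far from parity: miR-450b-5p was at 72.6, 396 and 330.2 CPM, against 15.8, 8.78 and 10.1 CPM for its 3p partner (edgeR adjusted p = 0.0747). Its 5p arm was higher in every library, and its call depended on the libraries: it was called without sham 1 (edgeR adjusted p = 1.68e-81) or sham 2 (0.0148) and not without sham 3 (0.306). It was also called without the library block (0.00353), with limma (0.0109) and with DESeq2 (4.69e-12).

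**Figure D3:**
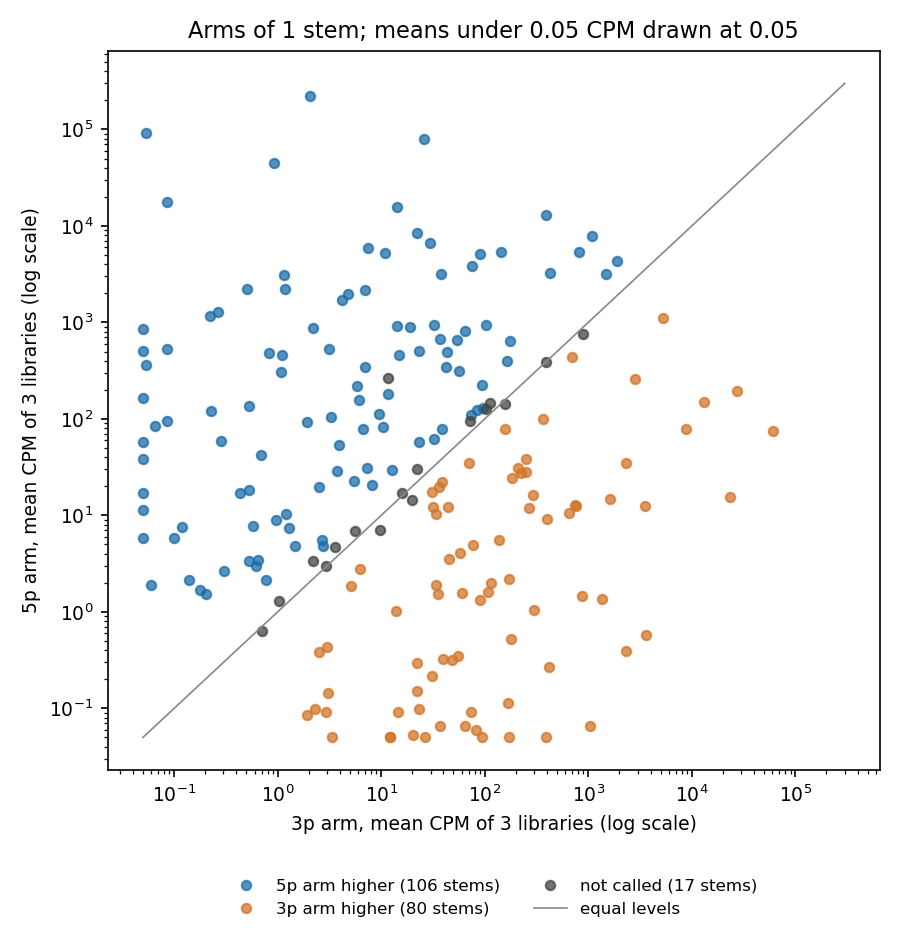
Mean CPM of the 5p arm against the 3p arm (both log scales) for 203 stems in the sham libraries; blue and orange mark stems called for the 5p arm (106) and the 3p arm (80), dark points the 17 not called, and the line equal levels; means under 0.05 CPM are drawn at 0.05. Most stems lie far from the line.

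The preferred arms differed from their partners in the first base. Among the 186 called stems 46.8% of preferred arms began with U (95% Wilson interval 39.7% to 53.9%), against 21.5% of lower arms. That interval takes the stems as independent, although some share a seed family, and it holds no spread between libraries. In 70 stems only the preferred arm began with U, and in 23 only the lower arm. Preferred 5p arms began with U in 50.9% (54 of 106) and preferred 3p arms in 41.2% (33 of 80). Conversely C began 18.3% of preferred and 31.2% of lower arms, and G 8.06% and 15.1%. The preferred arm was the longer in 75 stems and the shorter in 43, and its GC content was lower in 102 and higher in 70. In the 112 called stems without a near-identical or antisense miRNA, 42.0% of preferred and 19.6% of lower arms began with U.

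Tissue and cell type miRNAs were read from 19 lists. They held from 1 to 86 listed miRNAs, and the sum of a list depends on that number. For comparison, 67.2% of all 650 miRNAs were present at 1 CPM or more in every library, and the median miRNA was at 10.5 CPM. By mean level, 172 of the 650 (26.5%) were at 100 CPM or more.

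Sensory neuron and general neuronal miRNAs had large sums. The miR-183 cluster, made in sensory neurons and sense organs, held 37246, 41706 and 44158 CPM in sham 1, 2 and 3. Its members miR-182, miR-183-5p and miR-96-5p averaged 22999 ± 2720, 15818 ± 755 and 2205 ± 47.3 CPM. Of 40 neuronal miRNAs 31 were present and 10 were at 100 CPM or more by mean, near the share over all miRNAs. Their median was 17.2 CPM and their sum 27787 ± 1243 CPM. miR-9a-5p made up 47.3% of that sum, followed by miR-128-3p (4373 ± 575 CPM) and miR-7a-5p (3192 ± 651). miR-124-3p, the most abundant miRNA of brain neurons, ranked only 129th here at 252.1 ± 5.04 CPM. The cluster summed higher than the 40 neuronal miRNAs in each of the 3 libraries.

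miRNAs of myelinating glia summed to 10144 ± 516 CPM, with 8 of 9 members present. miR-338-5p (4289 ± 327 CPM), miR-204-5p (3805 ± 210) and miR-338-3p (1886 ± 210) made up most of it. The miR-219 members, which mark oligodendrocytes above all, were uneven or low. miR-219a-2-3p was at 19.7, 12.2 and 173.1 CPM, high in sham 3 alone, while miR-219a-1-3p was at 4.83 ± 1.34 CPM.

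Vessel and connective tissue miRNAs were also abundant. The mural pair miR-143 and miR-145 summed to 24143 ± 3936 CPM, of which miR-143-3p made up 96.0%, with miR-145-5p at 928.9 ± 221 CPM. The endothelial miR-126a summed to 13194 ± 1906 CPM. The fibroblast miRNAs summed to 6457 ± 924 CPM, from miR-199a-3p (5321 ± 722) and miR-199a-5p (1124 ± 334), while miR-214-3p, of the same list, was at 12.2 ± 4.37 CPM.

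miRNAs of blood cells were low. The erythroid list, of miR-486, miR-451 and miR-144, summed to 817, 277 and 398 CPM in sham 1, 2 and 3, so sham 1 was the highest. miR-486 led with 568.5, 184.5 and 269.4 CPM, miR-451-5p followed with 182.5, 77.0 and 106.5 CPM, and miR-144-3p had 45.5, 5.62 and 8.73 CPM. The leukocyte list was more even, with a sum of 298.8 ± 31.2 CPM over 10 miRNAs. Its leaders were miR-150-5p of lymphocytes (164 ± 13.4), miR-342-3p (45.3 ± 6.88) and miR-142-3p (44.4 ± 14.9 CPM), and the myeloid miR-223-3p was at 5.58 CPM.

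Of 10 striated muscle miRNAs 8 were present at 1 CPM or more in every library, and the list summed to 5947, 10966 and 10317 CPM. The low sum of sham 1 was that of miR-1b, which made up 91.9% of the list, at 5327, 10159 and 9533 CPM, and differs from miR-1-3p at 1 of 22 bases. miR-1-3p did not follow it, at 82.1, 75.7 and 112.5 CPM, lowest in sham 2. miR-499-5p averaged 526.2 ± 90.8 CPM and miR-133a-3p 76.9 ± 8.44. The labels name only trigeminal ganglia as tissue, and whether muscle fibres were carried along in the dissection was not tested.

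Lists that mark other tissues had low sums, although a sum depends on the number of members. The median member was at 3.76 CPM in the epithelial list, 5.47 in the multiciliated list and 7.17 in the gut and kidney list. In the pancreas and endocrine list it was at 33.6 CPM, above the median of 10.5 CPM over all miRNAs. Epithelial miRNAs summed to 237.3 ± 23.4 CPM over 14 members, led by miR-203a-3p (64.0 ± 7.38), miR-205 (57.0 ± 3.02) and miR-200b-3p (55.6 ± 21.9). The multiciliated list summed to 139.4 ± 30.6 CPM, led by miR-34c-5p (105.7 ± 21.9), followed by miR-34b-5p (23.0 ± 7.40) and miR-34b-3p (5.47 CPM). Gut and kidney miRNAs summed to 508.4 ± 15.8 CPM, mostly miR-192-5p (365 ± 13.9) and miR-194-5p (135.6 ± 2.62), with miR-215 at 7.17 CPM. Pancreas and endocrine miRNAs summed to 376.4 ± 55.0 CPM, with miR-375-3p at 274.6, 166 and 121.1 CPM, miR-216b-5p at 85.2 ± 5.36 and miR-217-5p at 59.6 ± 21.1. The hepatocyte miRNA miR-122-5p was at 7.24, 2.27 and 1.49 CPM. None of the 3 listed pluripotent cell miRNAs was present at 1 CPM, and miR-291b had no count.

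miRNAs of the Hox clusters showed 1 abundant member. miR-10a-5p was at 1256, 1918 and 1912 CPM and made up 99.3% of the list, with miR-10a-3p at 4.16 CPM. miR-10b-5p, the corresponding miRNA of another Hox cluster, had 5, 5 and 10 counts (0.628 ± 0.319 CPM). The listed miR-10b-5p sequence starts 2 bases later than that of miR-10a-5p and differs from it at 1 of the 21 bases they then share. How reads that match both were assigned is not stated, so the levels of miR-10a-5p and miR-10b-5p are uncertain. miR-196a-5p and miR-196b-5p stood at 2.54 and 3.86 CPM, and both were lowest in sham 1, where miR-196a-5p had no count.

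The imprinted Dlk1-Dio3 cluster, expressed from the maternal copy and prominent in neurons, had the most members and the largest sum. Its 86 of the 650 miRNAs held 47924 ± 4095 CPM, which is 4.79% of counts. Of these 86 miRNAs 72 were present and 29 were at 100 CPM or more by mean, against 172 of all 650 miRNAs. The median member was at 29.9 CPM. miR-127-3p made up 57.2% of the sum, followed by miR-379-5p (3264 ± 96.6 CPM) and miR-434-5p (3181 ± 65.9). The proliferative miR-17-92 group and its paralogs summed to 2534 ± 49.5 CPM, led by miR-25-3p (1362 ± 54.1), miR-363-3p (300.5 ± 34.6) and miR-93-5p (221.2 ± 5.07). The 13 miRNAs of a list linked to nerve injury, with those of miR-31a and miR-30b among them, summed to 12222 ± 334 CPM in these sham ganglia. They had a median of 14.9 CPM, against 10.5 CPM over all miRNAs. They were led by miR-146b-5p (5910 ± 146), miR-21-5p (3080 ± 442) and miR-146a-5p (2200 ± 82.6), whereas miR-221-3p was at 270.4 ± 16.9 and miR-222-3p, its neighbour, at 14.9 ± 1.95 CPM.

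**Figure D4:**
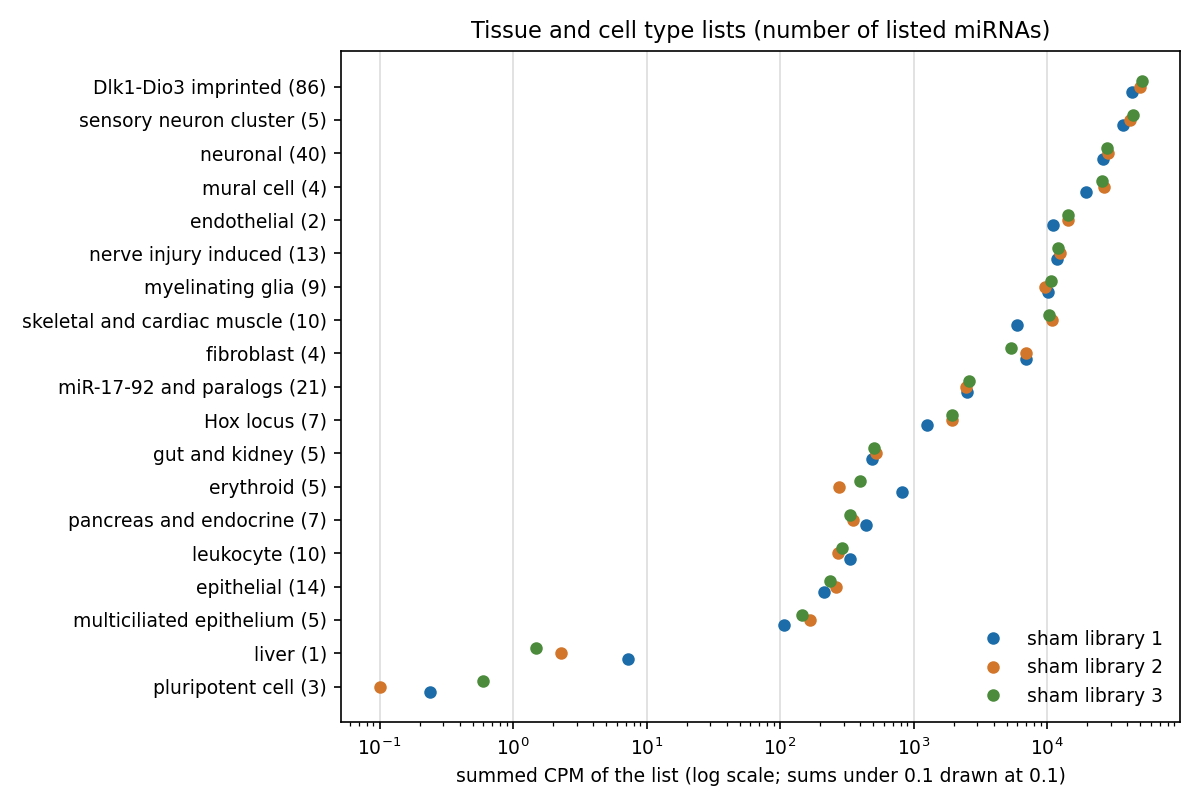
Summed CPM (log scale) of each tissue or cell type list in the 3 sham libraries, one dot per library, with the number of listed miRNAs in brackets; sums under 0.1 CPM are drawn at 0.1. Dlk1-Dio3, sensory neuron and neuronal lists stand at the top, and the liver and pluripotent cell lists at the bottom.

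Neighbouring hairpins, which are often made from 1 primary transcript, did not give equal counts of mature miRNA. As for the arms, these are ratios of counts of different sequences and not of molecules. Hairpins were joined where RefSeq (GRCr8) places them within 10000 bases on the same strand, which gave 45 clusters with at least 2 measured stems. Only the 519 of 650 miRNAs that matched a single such site were used. Some clusters therefore lack abundant members: miR-24-3p and let-7a-5p, for example, are in none. Among the abundant clusters as built here, that of miR-99b, let-7e and miR-125a was the evenest. Its members were at 5406 ± 377, 3178 ± 493 and 6589 ± 718 CPM, a ratio of 2.07 between the extremes. In the miR-183 cluster the extremes differed by a factor of 10.4, between miR-182 and miR-96-5p. miR-143-3p exceeded miR-145-5p by a factor of 24.96. In the 31-stem cluster of miR-379 the leading arms ran from 3264 CPM for miR-379-5p down to miR-381-3p, which had 3 counts in the 3 libraries together. Its neighbour miR-300-3p, whose first 18 bases differ from those of miR-381-3p at 1 base, was at 1222, 990.4 and 933.3 CPM.

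Some listed miRNAs are complementary to others and were abundant. With a minimum of 16 complementary bases in a row, 51 such pairs were found between miRNAs of different stems, and their 44 lower members held 2.05%, 1.91% and 1.76% of counts. The largest was miR-3553, at 8297, 9110 and 8690 CPM, whose sequence is complementary to miR-183-5p over 22 bases.
miR-183-5p: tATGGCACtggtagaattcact
miR-3553: cAGTGAATtctaccagtgccata
miR-3553 stood at 55.1%, 57.5% and 52.5% of miR-183-5p. miR-3588 stood at 24.3%, 26.7% and 22.4% of miR-125b-5p, and miR-3543 at 41.5%, 47.2% and 40.4% of miR-434-3p. For miR-378a-3p, a metabolic miRNA, the complementary miR-3557-5p was the more abundant, at 1958 ± 108 CPM against 292.6 ± 32.3. Other complementary pairs were far apart, such as miR-218b at 0.39% to 0.65% of miR-218a-5p. Whether the authors' counting used strand is not stated, and without it the reads of such pairs cannot be told apart, so the levels of both members are uncertain.

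Abundant miRNAs varied little between libraries. The median CV was 10.4% in the 17 miRNAs at 10000 CPM or more, 9.85% from 1000 to 10000, 12.6% from 100 to 1000, 14.1% from 10 to 100 and 24.5% from 1 to 10 CPM. Counting error alone would give median CVs of 0.20%, 0.534%, 1.66%, 5.46% and 16.4% in these classes. The rest of the spread holds library preparation and differences between ganglia, which cannot be told apart. Of the 172 miRNAs at 100 CPM or more, 4 varied over more than 2-fold: miR-450b-5p, miR-486, miR-451-5p and miR-375-3p. The next were miR-1b, the merged entry of let-7a-1-3p and let-7c-2-3p, miR-374-5p, miR-107-3p, miR-199a-5p and miR-151-3p, with ratios of highest to lowest from 1.91 down to 1.74. For some of them a near-identical miRNA moved the other way. miR-450a-5p, which differs from miR-450b-5p at 1 of 21 bases, was at 711.6, 423.6 and 444.8 CPM, high where miR-450b-5p was low. Their sum was 784.2, 819.7 and 775 CPM, within 792.9 ± 23.6, although miR-450b-5p itself varied by a factor of 5.45. miR-107-3p and miR-103-3p, which differ at 1 of 23 bases, likewise had a steady sum of 3572 ± 104 CPM, most of it from miR-103-3p (3296 ± 133). The sum of miR-1b and miR-1-3p did not level out, at 5409, 10234 and 9645 CPM. The part of read assignment in these values was not tested. The steadiest was miR-129-5p, a neuronal miRNA, at 1532, 1524 and 1556 CPM, followed by miR-194-5p and miR-124-3p.

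The distance of sham 1 from the other libraries was counted over the same miRNAs. It lay farthest from the mean of the others on the log2 scale for 101 of the 172 miRNAs, against 39 for sham 2 and 32 for sham 3. It differed by more than 1.5-fold from sham 2 for 27 miRNAs and from sham 3 for 25, whereas sham 2 and 3 did so for 3. In miR-450b-5p and miR-1b sham 1 was the low library, and in miR-486, miR-451-5p and miR-375-3p the high one. Sham 1 also had the largest total behind the deposited RPM, 24025572 against 15228984 and 15144660, of which miRNA counts made up 52.3% against 66.6% and 66.6%. The part of that difference in these levels was not tested. Rank order was shared widely, with Spearman rho of 0.983 to 0.987 between pairs of libraries over 650 miRNAs, which share the annotation and are dominated by their large range of levels.

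**Figure D5:**
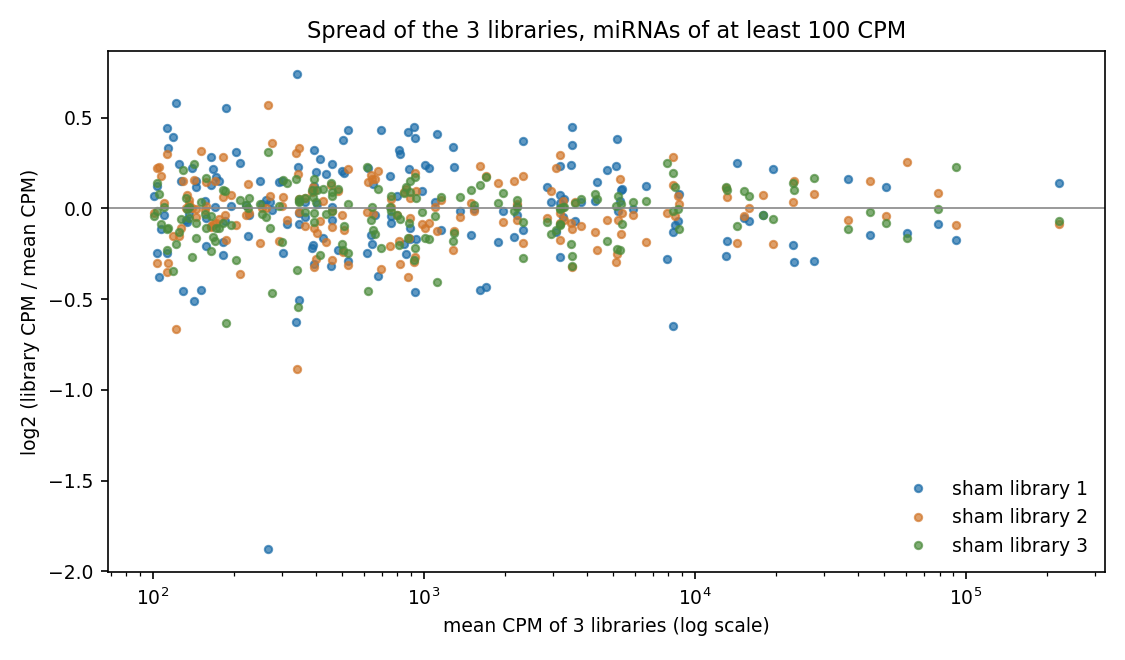
log2 of each library's CPM over the mean of the 3 sham libraries, against the mean CPM (log scale), for the 172 miRNAs of at least 100 CPM; dots are libraries. Sham 1 is the outermost for 101 miRNAs, and its lowest dot is miR-450b-5p.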

How the data were processed

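Small RNA was counted in 3 sham libraries of rat trigeminal ganglia. The authors deposited raw counts for 650 mature miRNAs with their sequences, and RPM values per library. The submitters' processing notes name cutadapt 1.14, Bowtie 1.1.1 and the rn6 build. Counter, annotation and use of strand: not given in the sources used here. Libraries were made from total RNA with a TruSeq RNA kit, per the labels' protocols. The deposited RPM equal the counts times 1 constant per library (100% of values within 0.01 read), and the total behind them is not described.

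CPM were computed over the column sum, with Python 3.11.15 and pandas 2.3.3, and given as mean ± SD (n = 3). Wilson 95% intervals of single-library shares of the 20 most abundant miRNAs were at most ± 0.0252 percentage points. These intervals and the floors cover counting error only. Arms were compared with edgeR 4.0.16 (glmQLFit, robust, column sums as library sizes, library as block, R 4.3.3, Benjamini-Hochberg); the SE is that of the 3 library log2 ratios. DESeq2 1.42.0, limma 3.58.1, TMM, other filters and left-out libraries were alternatives. On simulated data for 203 stems, 88.2% of arm ratios of 2 and 100% of ratios of 4 were recovered. Those counts were drawn from the dispersions that edgeR had fitted, with the arms independent. The recovery therefore checks the procedure and does not give the power of the test in these libraries. Both arms of a stem are read in the same library, which is where the pairing comes from. Sequences of 586 of 650 miRNAs equal RefSeq's.

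Named miRNAs are the 20 most abundant, the 12 largest seed families, the 10 most abundant stems with a higher 3p arm, the 10 stems of at least 100 CPM nearest parity and those whose higher arm changed, the 10 most variable of at least 100 CPM, and the 3 leaders of each list. Other miRNAs, such as complementary pairs, clusters and low members, were named after their values were seen. The lists were chosen with earlier results of these data known.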

Additional observations from a re-analysis of the deposited data

How the results depend on the processing

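Leaving out each library in turn moved the share of the first 10 miRNAs between 65.9% and 66.2%, that of miR-99a-5p between 21.0% and 22.8%, and the calls between 102 and 111 (5p) and 79 and 81 (3p); with 3 libraries a mean cannot move by a whole SD this way. Of the 186 called stems, 186, 182 and 181 stayed called without sham 1, 2 and 3, 184 with DESeq2 and 186 with limma. Without the replicate block (the pairing of arms within a library) edgeR called 106 stems for the 5p arm and 80 for the 3p arm, 185 of the same 186. TMM factors gave 98 and 85, and leaving out near-identical miRNAs 73 and 61. As shares of the total behind the deposited RPM, the first 10 miRNAs held 40.8%, miR-99a-5p 13.6%, the let-7 family 14.8% and the miR-99/100 family 15.0%, and 16 of 19 list sums moved by over 1 SD. Without miR-99a-5p, the first 10 held 58.8%, the let-7 family 30.9%, the miR-99/100 family 2.99% and miRNAs with a 5′ U 84.2% of counts. With near-identical miRNAs merged the first 10 entries held 77.0%, and without the lower members of complementary pairs (chosen after seeing the data) 67.3%. The number present at 1 CPM ranged from 396 with near-identical miRNAs merged to 447 without miR-99a-5p. With a threshold in counts instead, 537 miRNAs had at least 1 count and 442 at least 10 counts in all libraries. Below 1 CPM counting error alone gives a median CV of 77.5%, against an observed 88.1%, and from 1 to 10 CPM 16.4% against 24.5%.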
